A study of Mus musculus with 12 samples.

Results

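Small leucine-rich proteoglycans are secreted proteins of the extracellular matrix, and 9 genes of the family were followed here across 4 mouse melanoma cell lines: Dcn (decorin), Bgn (biglycan), Aspn (asporin), Lum (lumican), Fmod (fibromodulin), Prelp, Omd (osteomodulin), Ogn (osteoglycin, also called mimecan) and Podn (podocan). The 9 were taken by gene symbol from 55471 gene identifiers counted in each library. The family was selected on measured values, namely earlier fold changes of these data in which Dcn was lower in each dOVA line than in its parent. The members' differences between lines, and whether they passed the threshold used for all genes, are therefore given as a description and are no independent test. The RNA-seq libraries came from MeVa2.1, MeVa2.2 and 1 dOVA line of each, MeVa2.1.dOVA and MeVa2.2.dOVA. Each of the 4 lines had 3 libraries, 12 in all. All 4 lines were labelled as murine melanoma from skin or a subcutaneous tumour, with a wild-type genotype, and none had been treated. The series title names MeVa2.1.dOVA as immune-refractory, dOVA is not explained in the labels, and each dOVA line is compared here with the line whose name it extends. The labels do not say whether replicates were separate cultures, so p-values measure the spread between these libraries, which may be technical.

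Each of these proteins has a core of leucine-rich repeats that folds into a curved solenoid and binds collagen fibrils, and most carry chondroitin, dermatan or keratan sulfate chains. In skin, decorin and lumican are products of dermal fibroblasts that regulate the diameter and spacing of collagen fibrils. Decorin and biglycan also bind TGF-beta, soluble biglycan is a ligand of the Toll-like receptors TLR2 and TLR4, and soluble decorin binds receptor tyrosine kinases such as EGFR and MET.

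The libraries held 16181816 to 35627069 gene counts, and replicate 3 was the deepest of its line in all 4 lines. Where 3 values are given for a line, they follow the replicate numbers 1, 2 and 3. Levels are given as CPM (counts scaled to a common library size) after scaling by effective library size, or as CPM per kilobase of exon where genes are compared with each other. In a principal component analysis, replicate 2 of MeVa2.1.dOVA and replicate 2 of MeVa2.2 lay apart from their lines. The highest correlation of the latter with a library of another line was 0.969, above its lowest with one of its own, 0.932. Setting a highest value against a lowest favours a gap of this kind. Such an excess was also seen in other libraries, such as replicate 3 of MeVa2.1 (0.979 and 0.969). Replicate 2 of MeVa2.1.dOVA did not show it (0.947 and 0.956). Of 9 melanocyte markers, Mitf was the most abundant, at line means of 11.3 to 19.2 CPM, and the summed level of the list was 9.41 to 59.5 CPM per library. Sox10 did not exceed a line mean of 0.469 CPM, and the pigment genes Dct and Tyrp1 were at 0 in replicate 2 of every line. The summed fibroblast markers, of which 11 of 12 had counts and Tcf21 was at 0, reached 1493 to 1677 CPM in MeVa2.1 and 1123 to 1247 in its dOVA line, then 1051 to 1406 in MeVa2.2 and 710 to 1090 in its dOVA line. Summed leukocyte, endothelial and keratinocyte markers stayed at or below 4.32, 3.43 and 2.81 CPM, and Cd3e, Tie1 and Krt1 were at 0 in every library.

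Biglycan made up nearly all of the RNA of the 9 listed genes in every library. Tsku, a family gene outside the 9 that is described below, is not part of this sum. Per kilobase of union exon length, Bgn held 95.9% to 99.2% of the summed level of the 9 genes, and among all genes it ranked between 9 and 95 by CPM. Its level per length was 415 ± 78.9 CPM per kb in MeVa2.1 and 260 ± 98.4 in its dOVA line, then 360 ± 126 in MeVa2.2 and 355 ± 102 in its dOVA line (SD, n = 3). The other 8 genes together reached 2.33 to 19.3 CPM per kb. Bgn was clear of every other member in all 4 lines, with its lowest library above the highest of the next.

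Below biglycan, the order of the members per length changed from line to line, and most neighbours in it overlapped. In MeVa2.1 the order was Prelp (4.96 ± 3.35 CPM per kb), Podn (4.10 ± 2.25), Ogn (3.27 ± 2.68), Aspn (1.96 ± 0.336), Omd (0.674 ± 0.833), Dcn (0.597 ± 0.214), Lum (0.205 ± 0.197) and Fmod (0.0166 ± 0.0166). Only Lum and Fmod were neighbours without overlap there. In the other 3 lines Ogn was second, at 2.07 ± 1.23 CPM per kb in MeVa2.2, with 2.73 ± 3.0 and 3.32 ± 2.91 for the dOVA lines of MeVa2.1 and MeVa2.2. Dcn came seventh in MeVa2.1, MeVa2.1.dOVA and MeVa2.2 and eighth in MeVa2.2.dOVA. In MeVa2.1.dOVA it was clear of its neighbours on either side, Prelp above and Lum below. In MeVa2.2 and MeVa2.2.dOVA no neighbours below Bgn were clear of each other.

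**Figure D1:**
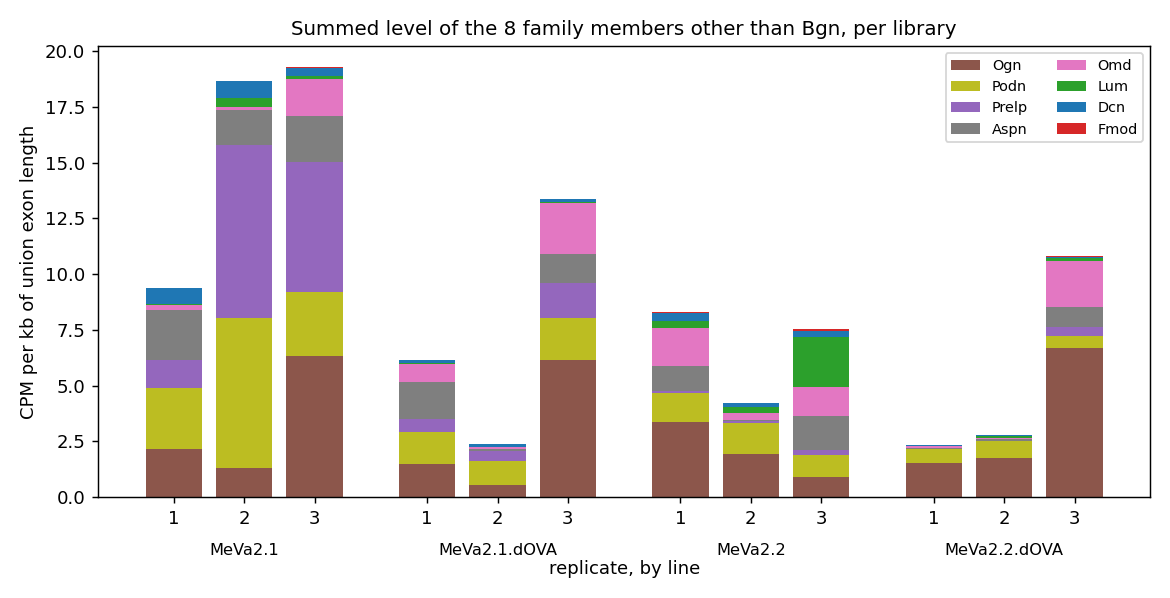
Summed level of the 8 members other than Bgn in each library, in CPM per kb of union exon length on a linear axis, by line and replicate number; colours are genes. The stack is tallest in replicates 2 and 3 of MeVa2.1 (18.7 and 19.3 CPM per kb) and shortest in replicate 1 of MeVa2.2.dOVA (2.33). Prelp is a large share in replicates 2 and 3 of MeVa2.1, and Ogn in the third replicates of 3 lines.

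Biglycan belongs to class I of the family and carries chondroitin or dermatan sulfate. Bgn (ENSMUSG00000031375, chromosome X, 73483602 to 73495933 on GRCm38) measured 1990, 2683 and 2915 CPM in MeVa2.1 and 1634, 959 and 2156 CPM in MeVa2.1.dOVA. In MeVa2.2 it was at 2271, 1387 and 2920 CPM, and in MeVa2.2.dOVA at 1663, 1969 and 2861. The libraries of all lines overlapped, and the lowest values in MeVa2.1.dOVA and MeVa2.2 were the replicate 2 libraries that lay apart. The fitted log2 fold change was -0.68 (SE 0.34) for MeVa2.1.dOVA against MeVa2.1 and -0.02 (SE 0.34) for MeVa2.2.dOVA against MeVa2.2.

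Decorin is the class I proteoglycan with a single glycosaminoglycan chain and the best-known regulator of collagen fibril shape. Dcn (ENSMUSG00000019929, chromosome 10, 97479609 to 97518143) had low counts throughout: 74, 80 and 75 in MeVa2.1, 11, 11 and 26 in MeVa2.1.dOVA, 36, 21 and 43 in MeVa2.2, and 5, 5 and 11 in MeVa2.2.dOVA. As levels these were 4.04, 4.37 and 2.06 CPM in MeVa2.1 and 0.672, 0.651 and 0.745 CPM in MeVa2.1.dOVA. In the other pair they were 2.09, 1.13 and 1.63 CPM in MeVa2.2 and 0.264, 0.277 and 0.306 CPM in MeVa2.2.dOVA. Every library of a dOVA line was below every library of both parental lines. The SD was 0.0492 and 0.0216 CPM in the dOVA lines and 1.25 and 0.478 CPM in their parents. An SD in CPM depends on the mean, and the counts were low, so these values do not rank the lines by variability. The fitted difference was -2.32 (SE 0.395) in the MeVa2.1 pair, 4.99-fold, and -2.49 (SE 0.419) in the MeVa2.2 pair, 5.61-fold. Their difference was -0.17 (SE 0.52). In bulk RNA, fewer cells that express a gene and less RNA per cell cannot be told apart.

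Asporin, the third class I member, has an aspartate-rich stretch in place of glycosaminoglycan attachment sites and inhibits TGF-beta in cartilage. Aspn (ENSMUSG00000021388, chromosome 13, 49544443 to 49567565) measured 5.23, 3.72 and 4.86 CPM in MeVa2.1. The other lines were uneven: 3.85, 0.237 and 3.04 CPM in MeVa2.1.dOVA, 2.61, 0.162 and 3.57 in MeVa2.2, and 0.105, 0.166 and 2.17 in MeVa2.2.dOVA. Low libraries held 2 to 4 counts of Aspn and were replicate 2 of MeVa2.1.dOVA and MeVa2.2 and replicates 1 and 2 of MeVa2.2.dOVA. The fitted differences of the dOVA lines, -0.95 (SE 1.11) and -1.30 (SE 1.15), were within the spread of the libraries.

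Class II members bind fibrillar collagen, and several of them carry keratan sulfate or sulfated tyrosines. Prelp, a matrix protein that links basement membranes to collagen, had its highest level in MeVa2.1. Prelp (ENSMUSG00000041577, chromosome 1, 133910304 to 133921414) was at 4.53, 28.0 and 21.2 CPM in MeVa2.1 and at 2.08, 1.54 and 5.76 CPM in MeVa2.1.dOVA. In MeVa2.2 it was at 0.290, 0.378 and 0.873 CPM, and in MeVa2.2.dOVA at 0.0527, 0.0554 and 1.501. All libraries of MeVa2.2 were below all libraries of MeVa2.1, with a fitted difference of -5.07 (SE 1.12), and those of MeVa2.2.dOVA were below those of MeVa2.1.dOVA, with -2.40 (SE 1.02). Within the origins, the dOVA difference was -2.50 (SE 0.97) in the MeVa2.1 pair, whose libraries overlapped, and 0.17 (SE 1.06) in the MeVa2.2 pair. Without replicate 3 of MeVa2.2.dOVA, the library with 54 of its 56 Prelp counts, the MeVa2.2 pair turned to -3.17 and the dOVA lines differed by -5.74.

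Lumican, a keratan sulfate proteoglycan of cornea and dermis, rested on few counts. Lum (ENSMUSG00000036446, chromosome 10, 97565128 to 97572703) had 2, 19 and 13 counts in MeVa2.1 and 2, 0 and 1 in its dOVA line, then 13, 11 and 145 in MeVa2.2 and 0, 3 and 9 in its dOVA line. Replicate 3 of MeVa2.2 stood alone, at 5.51 CPM against 0.754 and 0.594 in replicates 1 and 2. Every MeVa2.2 library was above every MeVa2.2.dOVA library, and the fitted difference was -3.90 (SE 1.15). In the MeVa2.1 pair the libraries overlapped, with 2 counts in replicate 1 of each line. The fitted difference there was -3.29 (SE 1.40) and was not called (edgeR adjusted p = 0.416). Summed over libraries, 34 counts in MeVa2.1 against 3 in MeVa2.1.dOVA gave a ratio of 10.6 after scaling. Its exact 95% counting interval, 3.32 to 53.7, covers counting error only and not the spread between libraries.

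Osteomodulin, a keratan sulfate proteoglycan of bone, did not separate the lines. Omd (ENSMUSG00000048368, chromosome 13, 49582462 to 49592822) was at 0.545, 0.328 and 3.68 CPM in MeVa2.1 and 1.83, 0.237 and 5.21 in its dOVA line, then 3.83, 0.702 and 2.92 in MeVa2.2 and 0.158, 0.166 and 4.64 in its dOVA line. The range within each line exceeded any difference between line means. Fibromodulin, which binds collagen beside lumican, had 24 counts in all: 5 in MeVa2.1 and 2 in its dOVA line, then 10 in MeVa2.2 and 7 in its dOVA line. Fmod (ENSMUSG00000041559, chromosome 1, 134037254 to 134048277) was the 1 member removed by the filter on low counts, and differences in it were not detectable at this depth.

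Osteoglycin is a class III member found in bone and vessel walls. Ogn (ENSMUSG00000021390, chromosome 13, 49608046 to 49624501) was at 5.56, 3.39 and 16.2 CPM in MeVa2.1 and 3.79, 1.42 and 15.8 in its dOVA line, then 8.64, 4.97 and 2.35 in MeVa2.2 and 3.95, 4.49 and 17.2 in its dOVA line. Replicate 3 was highest in 3 lines and lowest in MeVa2.2, and the libraries of every pair of lines overlapped.

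Podocan, a class V member that binds collagen and slows smooth muscle growth, had its highest level in MeVa2.1 and its lowest in MeVa2.2.dOVA. Podn (ENSMUSG00000028600, chromosome 4, 108014791 to 108096445) was at 11.7, 28.6 and 12.2 CPM in MeVa2.1 and 6.23, 4.56 and 7.96 in its dOVA line, then 5.63, 5.83 and 4.10 in MeVa2.2 and 2.64, 3.21 and 2.25 in its dOVA line. Both dOVA lines lay below their parents without overlap, and both MeVa2.2 lines lay below the matching MeVa2.1 line without overlap. Libraries of MeVa2.1.dOVA and MeVa2.2 overlapped. The fitted differences were -1.48 (SE 0.37) and -0.94 (SE 0.38) for the dOVA lines, -1.76 (SE 0.38) between the parents and -1.22 (SE 0.38) between the dOVA lines.

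**Figure D2:**
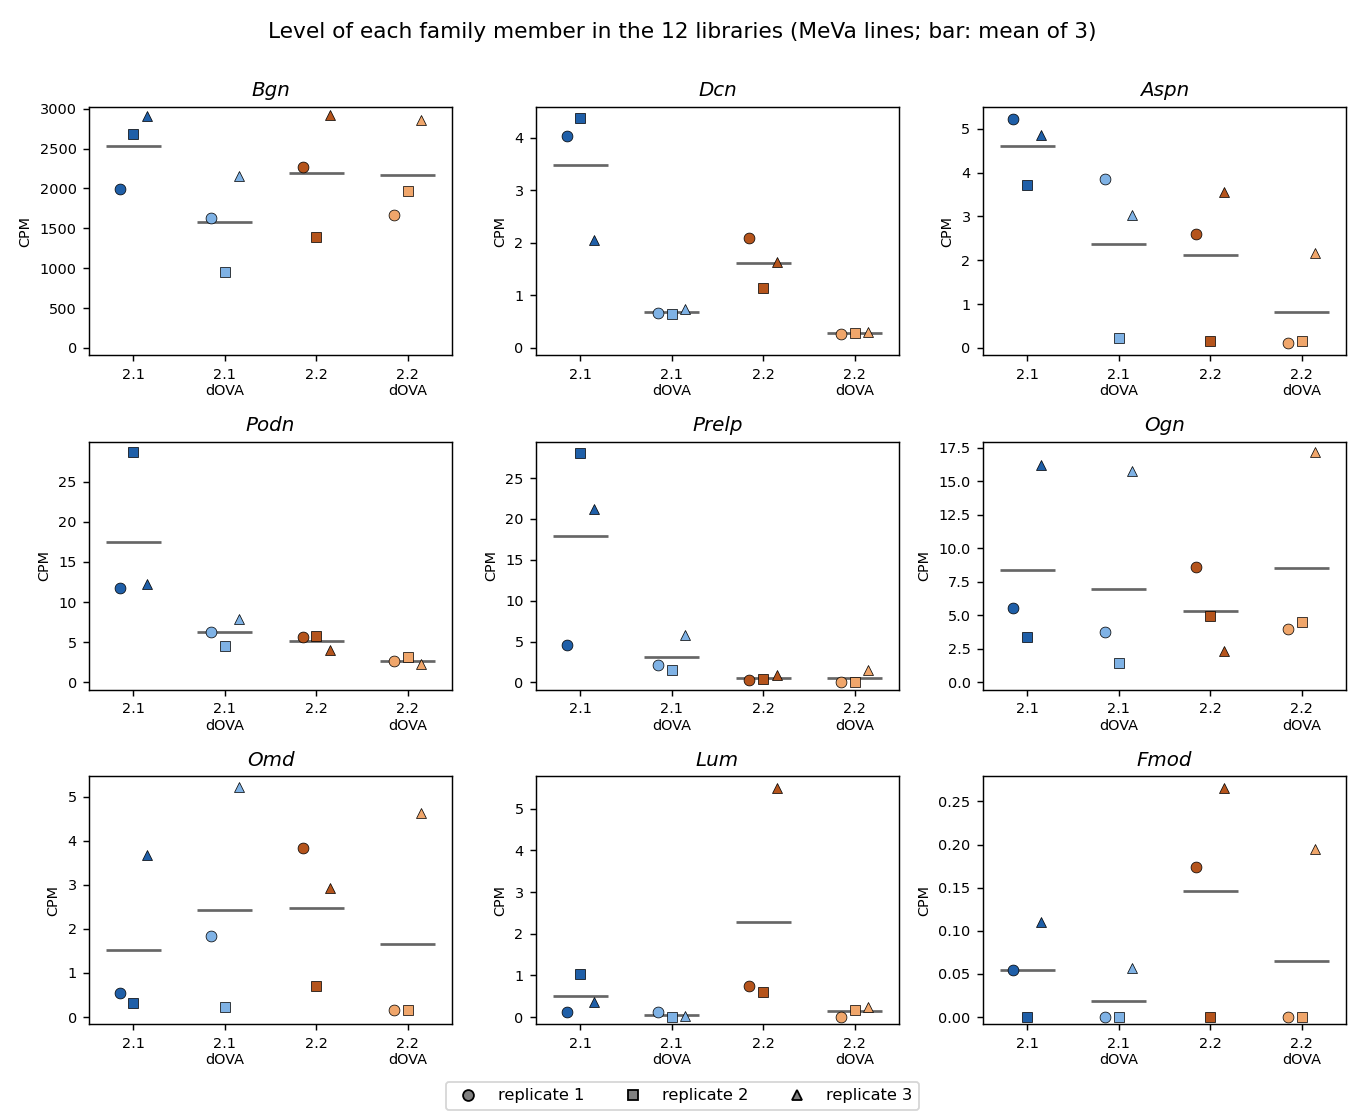
Level of each member in each of the 12 libraries in CPM on linear axes that differ between panels; symbols are replicate numbers and the bar is the mean of 3 libraries of a MeVa line. Dcn and Podn sit below their parents in both dOVA lines without overlap, Prelp reaches 28.0 CPM in MeVa2.1, and a single library sets the Lum mean in MeVa2.2 (5.51 CPM).

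The members' calls were set beside those of all 13985 genes tested with edgeR's quasi-likelihood test. The 8 members that passed the filter are not all 9, and their choice used these same contrasts, so the shares are printed and nothing is read from them. For MeVa2.1.dOVA against MeVa2.1, 1 member, Dcn, was called lower at an adjusted p under 0.05, as were 0.386% of all genes (0.1% higher, 0.486% in either direction), and DESeq2 placed Podn past its threshold as well. For MeVa2.2.dOVA against MeVa2.2, Dcn was again the 1 member called lower, beside 1.57% of all genes called lower, 0.422% higher and 1.99% in either direction. Without the filter on low counts, and by DESeq2, Lum was past the threshold there too. For MeVa2.2 against MeVa2.1, Prelp and Podn were called lower, beside 2.82% of all genes called lower, 1.66% higher and 4.48% in either direction. For MeVa2.2.dOVA against MeVa2.1.dOVA, 0 members were called, with 3 at an unadjusted p under 0.05 and 1, Podn, called lower by DESeq2, beside 6.45% of all genes called lower, 4.81% higher and 11.3% in either direction by edgeR. With the replicate number as a block, Prelp and Podn were called lower there. In that comparison and in the MeVa2.2 pair, where the block also called Lum lower, same-numbered libraries did not all deviate together. For the difference of the dOVA differences, 0 members were called by edgeR or DESeq2 and 0 had an unadjusted p under 0.05, beside 0.0858% of all genes called, 0.0358% higher and 0.0501% lower. The comparisons share lines, so their values are not independent of each other.

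Over the 8 tested members, the median log2 fold change was -1.22 for MeVa2.1.dOVA against MeVa2.1, -0.74 for MeVa2.2.dOVA against MeVa2.2, -0.89 between the parents and -0.87 between the dOVA lines. Over all tested genes these medians were 0.00, -0.02, 0.02 and -0.01. Members whose libraries did not overlap and were lower numbered 2 of 9 in the MeVa2.1 pair, Dcn and Podn, beside 10.9% of all genes. They numbered 3 of 9 in the MeVa2.2 pair, with Lum added, beside 9.22%. Between the parents they were Prelp, Aspn and Podn, beside 12.4%, and between the dOVA lines Dcn, Prelp and Podn, beside 16.3%. Dcn and Podn were lower without overlap in both dOVA pairs, which held for 2.25% of all genes. No member was higher without overlap in a comparison, beside 10.2%, 7.67%, 11% and 13.7% of all genes in the same order.

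**Figure D3:**
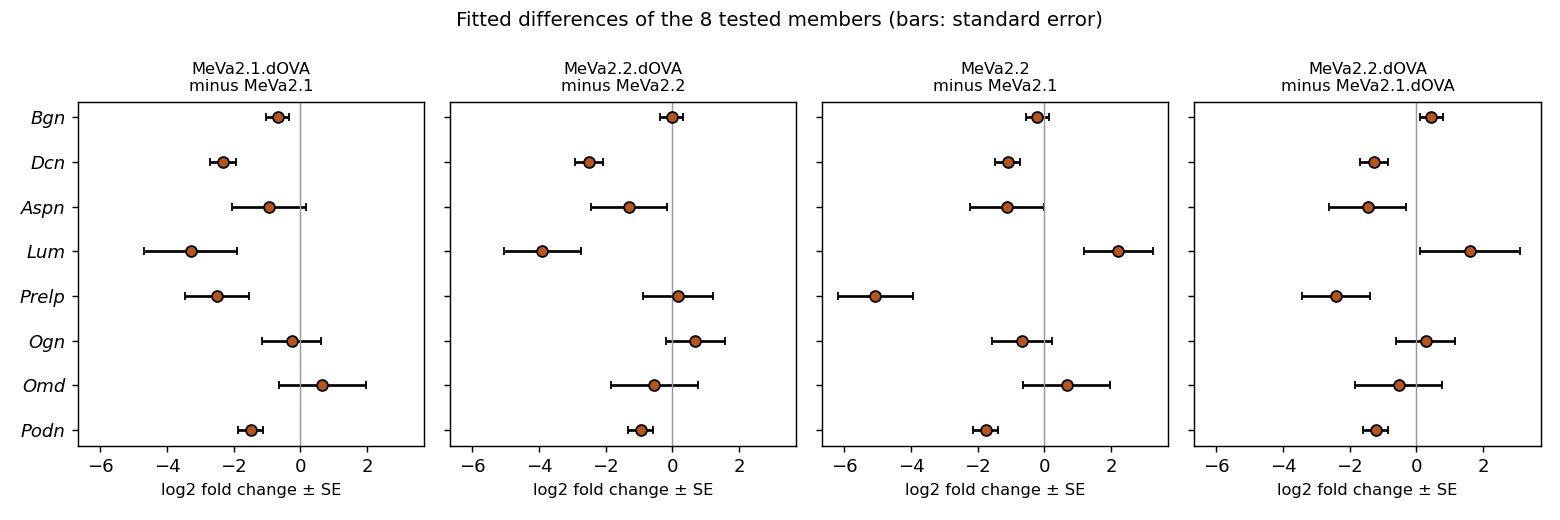
Fitted log2 fold change with its standard error (bars) for the 8 tested members in the 4 comparisons of lines. Dcn is near -2.4 in both dOVA comparisons, with -2.32 and -2.49, while Bgn lies near 0 in the MeVa2.2 pair and the errors of Lum, Prelp, Omd and Aspn span about 1 or more on the log2 scale.

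The calls of the members depended on single libraries. Over 12 fits that each left out 1 library, the Dcn difference, whose direction the choice of the family fixed, was -2.58 to -2.12 in the MeVa2.1 pair and was called in 5. It was not called without replicate 1 or 2 of MeVa2.1, without any 1 of the MeVa2.1.dOVA libraries, or without replicate 1 or 2 of MeVa2.2.dOVA, which enter through the shared estimate of spread. In the MeVa2.2 pair it was -2.70 to -2.27 and was called in 9 of 12, the exceptions being replicate 1 of MeVa2.2 and replicates 1 and 2 of MeVa2.2.dOVA. Without both replicate 2 libraries that lay apart, Dcn differed by -2.27 in the MeVa2.1 pair, not called, and by -2.69 in the MeVa2.2 pair, called. Prelp, between the parents, was -5.73 to -4.60 and called in 7 of 12, the exceptions being replicates 2 and 3 of MeVa2.1 and any 1 of the MeVa2.2 libraries. Podn was -1.98 to -1.21 and called in 8 of 12, the exceptions being replicate 2 of MeVa2.1 and any 1 of the MeVa2.2 libraries. The value of -1.21 came without replicate 2 of MeVa2.1, the library with 28.6 CPM.

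Several members had their highest or lowest library at the same replicate number in most lines, as did many of all genes. Bgn was highest in replicate 3 in 4 of 4 lines, as were 8.28% of all genes. Prelp, Ogn and Omd were highest in replicate 3 in 3 of 4 lines, and replicate 3 was highest in at least 3 lines for 21.8% of all genes. Aspn and Omd were lowest in replicate 2 in 3 lines, beside 27.4% of all genes that were lowest there in at least 3. Dcn did not follow this pattern: replicate 3 was its highest library in both dOVA lines and its lowest in MeVa2.1. Replicate 3 was also the deepest library of each line, with 26291546 to 35627069 gene counts against 16181816 to 19204452 in the others, and no label says what a replicate number stands for. The part of depth in these levels was not tested.

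The other genes of the family were low, with the exception of Tsku (tsukushi), a secreted class IV member that binds BMP and TGF-beta. Tsku (chromosome 7) was at 54.7 ± 24.4 CPM in MeVa2.1 and 48.9 ± 5.51 in its dOVA line, then 31.6 ± 10.4 in MeVa2.2 and 27.7 ± 5.09 in its dOVA line (SD, n = 3). Per length this was 9.10 to 17.9 CPM per kb, above each of the 8 listed members other than Bgn by line mean. Its dOVA differences were -0.16 (SE 0.33) and -0.19 (SE 0.33). Podnl1, the podocan-like gene, had line means of 1.43 to 3.07 CPM and was highest in replicate 3 in 3 lines. Ecm2 had line means of 0.346 to 0.955 CPM. Of these 3 tested genes, edgeR called 0 in each comparison of lines, with 1 at an unadjusted p under 0.05 between the parents and 1 between the dOVA lines, and DESeq2 called 0. With the replicate block, Podnl1 and Tsku were called lower in MeVa2.2.dOVA than in MeVa2.1.dOVA. Optc, Chadl, Nyx, Nepn and Kera had from 4 to 45 counts over the 12 libraries, and Epyc and Chad had 0, which allows up to 3 counts per library, or 0.0842 to 0.185 CPM.

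Most of the family sits in 3 gene clusters, and neighbours did not share 1 pattern. On chromosome 10, Dcn lies 47.0 kb from Lum, followed by Kera 34.2 kb further and Epyc after 30.4 kb. Dcn and Lum had counts, whereas Kera had 4 counts over all libraries and Epyc 0. On chromosome 13, Ecm2, Aspn, Omd and Ogn follow each other at gaps of 11.7, 14.9 and 15.2 kb inside the opposite-strand gene Cenpp, a centromere protein gene at 1.62 to 10.9 CPM. Exons of Ogn and Cenpp did not overlap. On chromosome 1, Prelp lies between Optc, 2.3 kb away, and Fmod, 115.8 kb away. Exons of Prelp share 350 bases with the opposite-strand gene Gm15851, which did not exceed 0.0580 CPM. The strand setting of the counting is not given in the sources used here, so reads from such overlaps cannot be assigned with certainty.

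RefSeq promoter windows on GRCm38.p6 were available for 7 of the 9 members, and the 250 bases before the annotated start are shown for biglycan, the abundant member, and for the 3 neighbours of the chromosome 13 cluster, which were low and uneven. Windows are written from 5′ to 3′ on the strand of the gene, and capitals mark matches to 4 motifs searched on both strands, described after the sequences.
Bgn, chrX:73483351-73483600, plus strand: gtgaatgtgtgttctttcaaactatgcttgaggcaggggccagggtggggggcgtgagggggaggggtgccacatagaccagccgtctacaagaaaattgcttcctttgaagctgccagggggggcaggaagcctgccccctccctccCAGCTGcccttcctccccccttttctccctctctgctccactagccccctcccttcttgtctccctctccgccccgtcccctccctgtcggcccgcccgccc
Aspn, chr13:49544193-49544442, plus strand: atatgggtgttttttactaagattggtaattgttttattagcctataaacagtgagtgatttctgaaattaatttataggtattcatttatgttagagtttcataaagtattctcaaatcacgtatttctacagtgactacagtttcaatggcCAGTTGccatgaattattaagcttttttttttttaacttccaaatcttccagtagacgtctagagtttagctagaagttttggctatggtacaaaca
Omd, chr13:49582212-49582461, plus strand: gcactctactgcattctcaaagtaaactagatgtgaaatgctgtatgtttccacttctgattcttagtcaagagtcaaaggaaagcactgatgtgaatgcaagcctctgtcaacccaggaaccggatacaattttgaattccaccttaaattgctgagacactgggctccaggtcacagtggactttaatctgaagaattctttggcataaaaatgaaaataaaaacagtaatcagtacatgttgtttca
Ogn, chr13:49607765-49608014, plus strand: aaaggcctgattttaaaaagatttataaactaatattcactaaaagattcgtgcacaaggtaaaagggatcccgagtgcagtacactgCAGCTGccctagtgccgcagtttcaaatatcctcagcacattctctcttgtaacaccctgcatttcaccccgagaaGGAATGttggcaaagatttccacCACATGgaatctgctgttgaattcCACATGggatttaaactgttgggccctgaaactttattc
The motifs were TGANTCA (AP-1), CAGACA (SMAD), GGAATG (TEAD) and CANNTG (E-box), and no matches overlapped each other. The capitals in Bgn and Aspn are 1 E-box match each, those in Ogn are 3 E-box matches and 1 TEAD match, and Omd held none. Over all 32851 windows in the table, the E-box letters were in 66.2%, SMAD in 17.1%, TEAD in 12.6% and AP-1 in 6.7%. The Bgn window had a GC content of 64.4%, above 81.6% of all windows, against 30.0% for Aspn, 38.4% for Omd and 42.0% for Ogn, where the median of all windows was 52.4%. Prelp (55.6%) and Fmod (51.2%) lay near that median, and the 2 windows of Podn were at 78.0% and 64.0%. These matches describe letters in a window and are not binding sites.

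The genes whose levels most resembled those of Dcn and Bgn over the 12 libraries were ranked by Pearson's r of log2 CPM, as a description. For Dcn they were Abhd2 (r = 0.965, 188 to 631 CPM), Slco2a1 (0.964, 0.211 to 8.36), Ptprf (0.954, 0 to 9.43), Dhrs3 (0.954, 0.0527 to 3.54) and Unc93b1 (0.953, 0 to 10.2). Genes other than Abhd2 thus fell to 0.211 CPM or less in their lowest library. Abhd2 encodes a lipid hydrolase, Slco2a1 a prostaglandin transporter, Ptprf a receptor tyrosine phosphatase, Dhrs3 a retinal reductase and Unc93b1 a chaperone of Toll-like receptors. For Bgn they were Slc36a4 (0.945), Chpt1 (0.937), Fam122b (0.914), Evc2 (0.912) and Kirrel3 (0.906). The points share libraries, depth and line, and these r values were the highest among the 13985 tested genes, clone and predicted names left out.

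Among fibrillar collagens and their partners, the ligands of most members, 13 of 16 genes passed the filter on low counts. Col1a2, a chain of type I collagen, was at 1345 ± 480 CPM in MeVa2.1 and 1707 ± 604 in its dOVA line, then 2987 ± 856 in MeVa2.2 and 2064 ± 1332 in its dOVA line (SD, n = 3), and Col1a1 had line means of 452 to 1008 CPM. Of the 13 tested genes, edgeR called 0 in each comparison. For MeVa2.1.dOVA against MeVa2.1 the median was -1.17, with 3 genes at an unadjusted p under 0.05 and 1 called lower by DESeq2, and for MeVa2.2.dOVA against MeVa2.2 it was -0.76, with 4 and 2. With the replicate block, Col11a1, Col5a3 and Col6a3 were called lower in the MeVa2.1 pair. In that fit Col12a1 and Col1a2 were called higher in MeVa2.2 than in MeVa2.1, and 2 genes higher and 2 lower between the dOVA lines. Without the block these last comparisons had 2 genes each at an unadjusted p under 0.05, and DESeq2 called 1 higher between the parents and 1 higher and 1 lower between the dOVA lines.

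Chondroitin and dermatan sulfate synthesis, which builds the chains of decorin and biglycan, was represented by 25 tested genes. Chst7, a chondroitin 6-sulfotransferase, measured 0.5997, 0.601 and 0.165 CPM in MeVa2.1 and 3.24, 5.27 and 4.50 CPM in MeVa2.1.dOVA, without overlap. It rose by 3.30 (SE 0.53) on the log2 scale (edgeR adjusted p = 0.0262), the 1 gene of the list called in that comparison. In the MeVa2.2 pair Chst7 was at 1.91, 2.86 and 2.47 CPM against 1.74, 1.05 and 0.751 in the dOVA line, with a difference of -1.04 (SE 0.48, edgeR adjusted p = 0.309). The difference between these differences was -4.34 (SE 0.71, edgeR adjusted p = 0.0572), which missed the threshold and passed it with the replicate block (1 gene of the list called). The Chst7 call in the MeVa2.1 pair was kept in 7 of 12 fits without 1 library and lost without replicate 1 or 2 of MeVa2.1 or any 1 library of MeVa2.1.dOVA, at values of 2.85 to 3.57. With the replicate block Chst11 was called lower as well.

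In the MeVa2.2 pair edgeR called 0 of the 25 chain synthesis genes, with 5 at an unadjusted p under 0.05 and 3 called lower by DESeq2, and 22 of 25 had a negative fold change in each dOVA comparison (medians -0.42 and -0.47). Between the parents, Ust, a uronyl 2-sulfotransferase, fell from 32.7 ± 10.1 to 7.47 ± 1.73 CPM (SD, n = 3; -2.13, SE 0.33, edgeR adjusted p = 0.0039), Papss2 fell by 2.24 (SE 0.47), and Chst7 rose by 2.45 (SE 0.52). Between the dOVA lines Ust, Chst7 and Ugdh were lower in MeVa2.2.dOVA, by -2.31 (SE 0.33), -1.89 (SE 0.485) and -1.26 (SE 0.33). The replicate block raised that count to 6 lower. Both Ust calls held in 12 of 12 fits without 1 library, while Papss2 held in 8, Chst7 in 9 and 8, and Ugdh in 6.

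Of 6 tested keratan sulfate genes, which serve lumican, fibromodulin and osteomodulin, Chst2 differed by origin. Chst2, an N-acetylglucosamine 6-sulfotransferase, was at 19.2 ± 5.39 CPM in MeVa2.1 and 20.2 ± 8.71 in its dOVA line (SD, n = 3), against 197 ± 12.2 in MeVa2.2 and 150 ± 25.2 in the dOVA line of that origin. It was higher by 3.35 (SE 0.33, edgeR adjusted p = 0.000192) and 2.89 (SE 0.32, edgeR adjusted p = 0.000273), and both calls held in 12 of 12 fits without 1 library. B4galt4, a galactosyltransferase, fell by 2.75 (SE 0.51) in the MeVa2.2 pair, by 1.80 (SE 0.44) between the parents and by 3.39 (SE 0.51) between the dOVA lines, with calls kept in 7, 4 and 12 of 12 such fits. Chst1 fell by 2.67 (SE 0.69) between the dOVA lines, a call kept in 7 of 12 such fits (-3.96 to -2.19) and lost without any 1 library of MeVa2.1.dOVA or replicate 1 or 2 of MeVa2.2.dOVA. In the MeVa2.1 pair edgeR and DESeq2 called 0, with 2 at an unadjusted p under 0.05, and the replicate block called B4galt1 lower.

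Receptors of soluble decorin and biglycan gave few calls among 11 tested. Egfr, a receptor bound by decorin, was at 2.15, 1.46 and 2.16 CPM in MeVa2.2 and 0.211, 0.222 and 0 in MeVa2.2.dOVA (-3.88, SE 0.85, edgeR adjusted p = 0.0453), and it was also lower in MeVa2.2.dOVA than in MeVa2.1.dOVA (-3.37, SE 0.85). The first call was kept in 4 of 12 fits without 1 library, at values of -4.41 to -3.13, and the latter in 8. The first call was lost without any 1 library of MeVa2.1 or replicate 1 of MeVa2.1.dOVA. It was also lost without replicate 1 or 3 of MeVa2.2, or replicate 1 or 2 of MeVa2.2.dOVA. Lrp1, an endocytic receptor of decorin, was at 1873 ± 248 CPM in MeVa2.1 and 1644 ± 377 in its dOVA line (SD, n = 3), against 1050.0 ± 75.6 in MeVa2.2 and 839 ± 155 in the dOVA line of that origin, and was lower by origin in both comparisons (-0.84, SE 0.21, and -0.97, SE 0.21). Those calls were kept in 4 and 9 of 12 fits. Cd44 had line means of 685 to 1143 CPM, and Tlr4, the receptor of soluble biglycan, had 70.3 to 102 CPM, while Tlr2 had 2.62 to 7.50. In the MeVa2.1 pair edgeR called 0 receptors, with 2 at an unadjusted p under 0.05 and 1 called lower by DESeq2, and the replicate block called Itga2 lower. Between the parents the block added Tlr2, lower in MeVa2.2.

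In the list of TGF-beta ligands, receptors and targets, which decorin, biglycan, asporin and Tsku products bind or restrain, all 18 genes were tested. Ltbp2, a latent TGF-beta binding protein of elastic fibres, was at 17.4, 4.32 and 36.3 CPM in MeVa2.2 and 1.21, 0.609 and 0.945 in MeVa2.2.dOVA (-4.38, SE 0.66, edgeR adjusted p = 0.0121). Ltbp1 fell by 0.88 (SE 0.16) in the same pair. The Ltbp2 call was lost without replicate 2 of MeVa2.2.dOVA, and the Ltbp1 call without replicate 1 of MeVa2.2 or replicate 1 or 2 of MeVa2.2.dOVA. In the MeVa2.1 pair edgeR called 0, with 5 at an unadjusted p under 0.05 and 1 called lower by DESeq2, and the replicate block called Tgfbr2 lower. Between the parents Ccn4 (2.37, SE 0.54) and Ltbp1 (0.61, SE 0.16) were higher in MeVa2.2, and Skil (-0.84, SE 0.19) and Ltbp3 (-0.88, SE 0.22) lower. Between the dOVA lines Tgfbr2 (1.01, SE 0.22), Ccn4 (2.14, SE 0.54) and Tgfb2 (0.86, SE 0.23) were higher in MeVa2.2.dOVA and Ltbp2 lower (-3.09, SE 0.64). Of these, Tgfbr2 was called in 12 of 12 fits without 1 library, Ltbp2 in 11, Ccn4 in 4 and 9, Skil in 7, Ltbp3 and Tgfb2 in 5 and Ltbp1 in 1. The ligand Tgfb1 had line means of 16.1 to 31.7 CPM and was not called.

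Proteases that process or degrade the family, such as the biglycan-processing enzyme Bmp1, were listed together with their cofactors. Among the 11 tested genes, calls came from the comparison of the dOVA lines. There the cofactor Pcolce2 (-1.45, SE 0.25) and the proteases Mmp13 (-8.25, SE 1.68) and Mmp3 (-5.44, SE 1.496) were lower in MeVa2.2.dOVA. The protease Mmp2 was higher (1.42, SE 0.40). Pcolce2 and Mmp13 were called in 12 of 12 fits without 1 library, Mmp3 in 7 and Mmp2 in 3. In the MeVa2.1 pair, the MeVa2.2 pair and between the parents edgeR called 0, with 4, 4 and 3 genes at an unadjusted p under 0.05 and 2 called lower by DESeq2 in each. With the replicate block, Mmp2 was called lower in the MeVa2.1 pair and Mmp13 and Mmp3 lower between the parents. Bmp1 itself had line means of 66.3 to 130 CPM.

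Among 5 tested genes for other chondroitin sulfate proteoglycans and their link proteins, Cspg4 and Vcan fell in the MeVa2.2 pair. Cspg4, the melanoma-associated proteoglycan NG2, was at 556, 383 and 522 CPM in MeVa2.2 and 104, 54.0 and 163 in MeVa2.2.dOVA (-2.19, SE 0.45, edgeR adjusted p = 0.0388). Vcan, the large proteoglycan versican, was at 210, 324 and 428 CPM against 98.8, 75.9 and 170 (-1.48, SE 0.31, edgeR adjusted p = 0.0404). In both genes the lines did not overlap. These calls were kept in 5 and 3 of 12 fits without 1 library, at values of -2.63 to -1.85 and -1.88 to -1.20. Both genes were also lower in MeVa2.2.dOVA than in MeVa2.1.dOVA (-3.14, SE 0.47, and -1.49, SE 0.31), with calls kept in 12 and 11 of 12 fits. In the MeVa2.1 pair, Vcan was at 192 ± 20.6 CPM in MeVa2.1 and 323 ± 44.4 in MeVa2.1.dOVA (SD, n = 3). There edgeR and DESeq2 called 0 of the list, with 1 gene at an unadjusted p under 0.05, and between the parents they called 0, with 3. With the replicate block Esm1 was called higher in MeVa2.2 than in MeVa2.1.

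**Figure D4:**
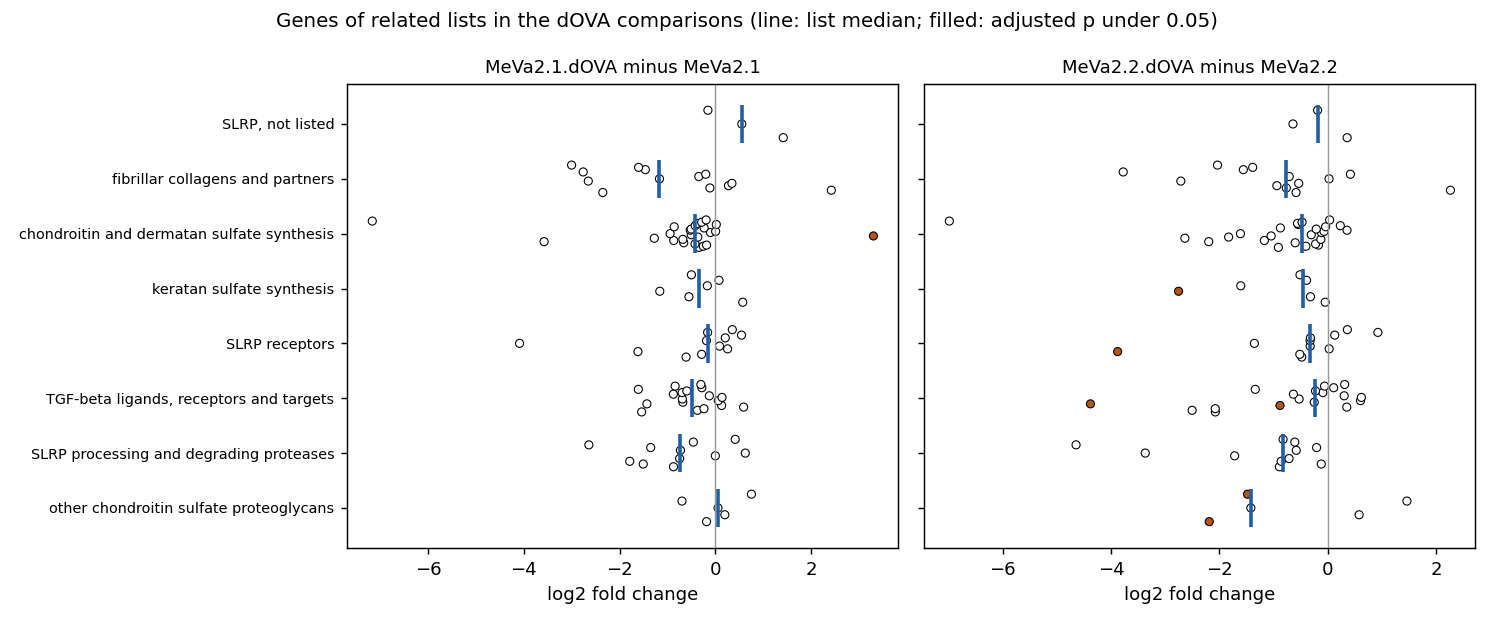
Fitted log2 fold changes of the tested genes in 8 related lists for the dOVA line against its parent in each origin; each point is a gene, the blue line is the list median and filled points have an adjusted p under 0.05. Chst7 is the 1 filled point for the MeVa2.1 pair, at 3.30, and the collagen medians are -1.17 and -0.76.

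Fibroblast and melanocyte markers were set beside the decorin difference. Of 11 tested fibroblast markers without the family's own genes, edgeR called 0 in the MeVa2.1 pair, with 5 at an unadjusted p under 0.05 and 1 called higher and 2 lower by DESeq2, and it called 2 lower in the MeVa2.2 pair. Cd34, Fap and Thy1 were called in the MeVa2.1 pair with the replicate block, 1 higher and 2 lower. Of the 11, 9 had a negative fold change in the MeVa2.1 pair (median -1.08) and 10 in the MeVa2.2 pair (median -0.87). In the MeVa2.2 pair Thy1 fell from 25.5, 5.18 and 29.7 CPM to 0.474, 0.111 and 0.111 (-6.49, SE 1.09, edgeR adjusted p = 0.0178), and Pdgfra fell from 193, 166 and 199 CPM to 52.4, 29.2 and 10.2 (-2.61, SE 0.59, edgeR adjusted p = 0.0483). The Thy1 call was kept in 10 of 12 fits without 1 library, lost without replicate 1 of MeVa2.2 or replicate 2 of MeVa2.2.dOVA, and the Pdgfra call in 1. Between the dOVA lines Pdpn (-3.29, SE 0.74) and Prrx1 (-0.59, SE 0.16) were lower in MeVa2.2.dOVA, with calls kept in 10 and 7 of 12 fits, and the block raised the count to 2 higher and 3 lower. Of 5 tested melanocyte markers, 3 had a negative fold change in the MeVa2.1 pair (median -0.16) and 5 in the MeVa2.2 pair (median -3.38). There edgeR called 0, with 3 at an unadjusted p under 0.05 and 1 called lower by DESeq2. Dct was at 15.6, 0 and 2.28 CPM in MeVa2.2 and 0.738, 0 and 0 in its dOVA line, so replicate 1 of MeVa2.2 held most of it. The part of these markers in the decorin difference was not tested. Of 4 tested tendon, bone and cartilage markers, edgeR called Mkx lower in MeVa2.2 than in MeVa2.1 (-1.75, SE 0.36, edgeR adjusted p = 0.0202). That call was kept in 8 of 12 fits without 1 library. In the MeVa2.2 pair edgeR called 0 of them, DESeq2 called 1 higher, and the replicate block called Mkx higher.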

How the data were processed

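Bulk RNA-seq libraries of 4 mouse cell lines, 3 per line, were analysed. Per the labels' protocols, RNA was extracted with an RNeasy kit and poly(A)-selected libraries were made with a stranded TruSeq kit. The deposited values are whole-number read counts per gene, made by the authors with STAR 2.6.0c and HTSeq 0.10.0 on GRCm38, and the authors' tools include DESeq2 1.30.1, per the submitters' processing notes. The annotation release and the strand setting are not given in the sources used here.

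HTSeq tally lines, 35.8% to 40.0% of each library, were left out, which leaves 16181816 to 35627069 gene counts per library. Of 55471 identifiers, 55144 matched a symbol and a GENCODE M21 position. Genes were filtered with filterByExpr (13985 kept), scaled by TMM (factors 0.953 to 1.07) and fitted over all 12 libraries with edgeR 4.0.16 (glmQLFit and glmQLFTest, limma 3.58.1, R 4.3.3; common dispersion 0.121, 8 residual degrees of freedom), with Benjamini-Hochberg adjustment over all genes at 0.05. Standard errors are those implied by the F statistic. Log2 CPM used a prior count of 2. Intervals are exact at 95%, floors are 3 counts per library, and both cover counting error only. The fit was also run on counts simulated from its own estimates of spread. That run checks the code and cannot show whether the fit suits these libraries. No replicates agreed within sampling noise (lowest chi-square per degree of freedom 29.63).

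Alternatives were DESeq2 1.42.0, its size factors, no filter, the compared lines alone, each library left out, and the replicate number as a block. Same-numbered libraries deviated together in the MeVa2.1 pair (r 0.488 to 0.534) and between the parents (0.328 to 0.429). They did so less evenly in the MeVa2.2 pair (0.082, 0.64 and 0.521) and between the dOVA lines (0.105, 0.516 and 0.416). In both of these, some differently numbered libraries had a higher r than number 1 with number 1 (up to 0.229 and 0.315). Block calls between the dOVA lines carry the same limit as those of the MeVa2.2 pair. The labels share numbers without saying what they mark.

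The members and lists were chosen with earlier results of these data known. All members were named, along with other family genes with counts, up to 4 called genes per list and comparison, or up to 2 of the highest level where none was called, and the 5 genes most like Dcn and like each member above 50 CPM. Tlr2, Tlr4, Tgfb1, Bmp1 and genes called with the block alone were named after their values were seen.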

Additional observations from a re-analysis of the deposited data

How the results depend on the processing

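Between the dOVA lines and their parents, the number of genes called depended on the processing. For MeVa2.1.dOVA against MeVa2.1 (68 genes), edgeR called 272 without the filter on low counts, 25 when the 2 lines were fitted alone and 1 to 83 when 1 library was left out, and DESeq2 called 389. The count was 1 without replicate 1 or 2 of MeVa2.1 or replicate 2 or 3 of MeVa2.1.dOVA, and 9 without replicate 1 of MeVa2.1.dOVA. For MeVa2.2.dOVA against MeVa2.2 (278 genes) the same settings gave 729, 5, 20 to 447 and 950, the lowest without replicate 2 of MeVa2.2.dOVA. Between the parents (627 genes) they gave 969, 397, 279 to 775 and 1216. Between the dOVA lines (1574 genes), the lines alone gave 1025, leaving out 1 library 796 to 2578, and DESeq2 2380. For the difference of the dOVA differences (12 genes), no filter gave 161, leaving out 1 library 0 to 13, and DESeq2 272. Its count of 0 came without replicate 3 of MeVa2.1.dOVA (1125 genes at an unadjusted p under 0.05) or replicate 1 of MeVa2.2 (992). With the replicate block, the counts of these comparisons were 364, 1084, 1330, 3079 and 118. In the MeVa2.2 pair, where same-numbered libraries did not all deviate together, the block added Lum, Chst15, Csgalnact1, Papss1, Xylt1, Mmp3, Esm1, Pdpn, Dct, Pmel and Tyrp1 to the genes called lower, and called Col11a2, Col5a3, Bmp2, Ccn2, Ltbp4 and Skil in 1 direction or the other.

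Further settings were chosen after seeing the data. Without both replicate 2 libraries that lay apart, edgeR called 2 genes in the MeVa2.1 pair and 693 in the MeVa2.2 pair. Without the third replicates it called 0 in the MeVa2.1 pair (1727 at an unadjusted p under 0.05), 11 in the MeVa2.2 pair, 375 between the parents and 0 for the difference of differences (1258). The causes were not tested. Over 19 alternatives Dcn ranged from -2.65 to -2.12 and from -2.70 to -2.27 in the dOVA pairs, and its call was lost in both when the 2 lines were fitted alone and without the third replicates. By the longest transcript, Dcn and Omd exchanged places in MeVa2.1. In MeVa2.2.dOVA, Omd exchanged places with Podn and Dcn with Lum, which left 5 of 9 members at the same rank. Fmod and Lum are limited by their counts.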
